A study of Homo sapiens with 24 samples.

Results

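The EGR and IER immediate early genes were followed in A549 cells, a line derived from a human lung adenocarcinoma, during exposure to the synthetic glucocorticoid dexamethasone (dex). The 8 genes were EGR1, EGR2, EGR3, IER2, IER3, IER5, IER5L and ARC, and they were taken from 33127 genes by their GENCODE symbols, with the counts of their 15 transcripts summed per gene. Cells received 100 nM dex or the vehicle ethanol (EtOH) for 1, 3, 5, 7, 9 or 11 h, and no group carried a further agent or genetic change in the labels. There were 2 poly-A RNA-seq libraries for each treatment and time point, 24 libraries in 12 groups, whereas the study's methods name triplicates. The treatment text of the labels names 1 h for every library, and the time points used here come from the duration that the labels also give. Nothing in the labels says that replicates came from separate cultures, so p-values measure the spread between libraries, which may be technical. All cells are of 1 line, and expression in A549 stands for that line only.

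Immediate early genes are transcribed within minutes of a growth factor or stress signal without new protein synthesis, largely through serum response factor (SRF) with ELK partners at CArG boxes and through CREB at cyclic AMP response elements (CRE). EGR1, EGR2 and EGR3 encode zinc finger transcription factors, which the corepressors NAB1 and NAB2 restrain. IER2, IER5 and IER5L encode related nuclear proteins, IER3 encodes a stress-inducible protein that acts in cell survival, and ARC encodes a cytoskeleton-associated protein best known from neuronal synapses. Dex acts through the glucocorticoid receptor, which binds glucocorticoid response elements (GRE).

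The sequences before the starts of EGR1, IER2, IER5 and IER5L are shown because the IER genes moved with dex and EGR1 did not pass the test. Each line gives the 250 bases before a RefSeq start (GRCh38.p14), 5′ to 3′ on the gene's strand. The regions are chr5:138465229-138465478 on the plus strand for EGR1, chr19:13150161-13150410 on the plus strand for IER2, chr1:181088450-181088699 on the plus strand for IER5 and chr9:129178262-129178511 on the minus strand for IER5L. Capitals mark every match to 5 motifs searched on both strands, namely the CArG box, the EGR site GCGTGGGCG, the CRE core TGACG, the GRE unit TGTTCT and the paired heat shock unit GAANNTTC.
EGR1: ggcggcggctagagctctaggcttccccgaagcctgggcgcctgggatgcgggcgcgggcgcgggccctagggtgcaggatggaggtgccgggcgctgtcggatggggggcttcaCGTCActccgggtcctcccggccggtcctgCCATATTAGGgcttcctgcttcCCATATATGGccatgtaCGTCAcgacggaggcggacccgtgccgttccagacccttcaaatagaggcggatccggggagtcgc
IER2: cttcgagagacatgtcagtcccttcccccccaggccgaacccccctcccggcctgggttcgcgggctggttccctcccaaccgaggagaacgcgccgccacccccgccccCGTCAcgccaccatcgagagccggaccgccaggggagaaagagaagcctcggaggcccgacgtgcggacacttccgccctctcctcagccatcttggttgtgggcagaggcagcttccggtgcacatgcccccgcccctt
IER5: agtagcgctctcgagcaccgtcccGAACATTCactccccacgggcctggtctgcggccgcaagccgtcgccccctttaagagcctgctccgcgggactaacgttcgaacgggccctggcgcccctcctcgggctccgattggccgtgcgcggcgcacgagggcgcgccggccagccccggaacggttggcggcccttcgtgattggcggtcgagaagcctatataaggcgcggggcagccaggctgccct
IER5L: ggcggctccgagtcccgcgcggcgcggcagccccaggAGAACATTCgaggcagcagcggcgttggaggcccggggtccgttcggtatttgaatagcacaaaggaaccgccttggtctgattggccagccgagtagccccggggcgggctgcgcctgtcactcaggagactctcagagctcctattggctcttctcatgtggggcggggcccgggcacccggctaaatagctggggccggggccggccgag

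The EGR1 sequence held 2 CArG boxes, at -105 to -96 and at -83 to -74 from the start, and 2 CRE cores, at -135 to -131 and at -66 to -62. The third EGR2 start held 1 CArG box between 2 CRE cores as well, while the other EGR2 starts held no match. Over all 35116 promoter entries of 27305 genes, 1.16% held a CArG box and 21.2% a CRE core in the same window. Of the IER genes, IER2 held a single CRE core at -140 to -136. IER5 and IER5L shared the letters GAACATTC, a paired heat shock unit, at -226 to -219 and at -212 to -205. This motif was added after the sequences were seen, and 5.78% of all entries held it. In IER5L it overlapped a GRE unit at -213 to -208, a motif that 12.4% of all entries held. The EGR site, held by 0.72% of all entries, was in none of these windows, which says only that these letters are not there. Of the 8 genes, 5 had an entry that was searched, namely EGR1, EGR2, IER2, IER5 and IER5L. EGR3 and ARC were left out of the search and IER3 had no entry, so nothing is said of their promoters. A match describes letters, not a bound site.

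**Figure D1:**
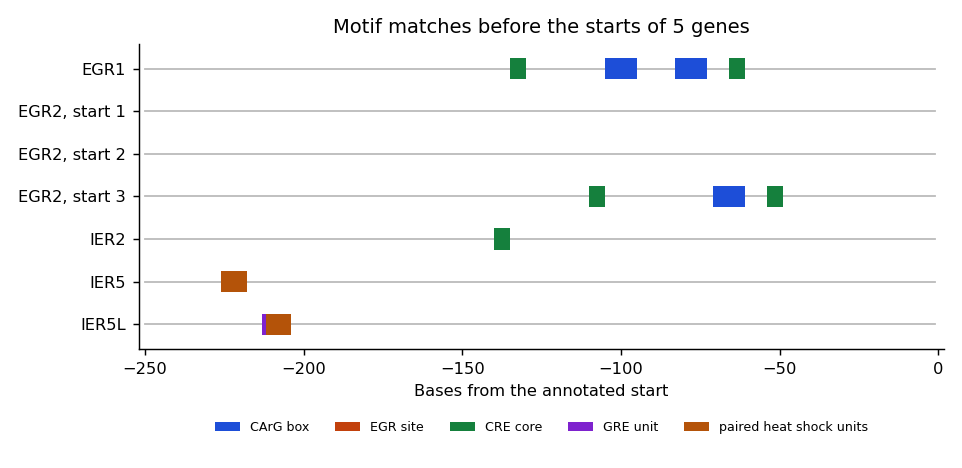
Each line is the window of 250 bases before 1 annotated start of EGR1, EGR2, IER2, IER5 or IER5L, with the distance from the start in bases on the x axis and coloured blocks for matches to the 5 motifs. CArG boxes lie at EGR1 and at the third EGR2 start only, and paired heat shock units at IER5 and IER5L only.

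Libraries held between 6708864 and 13748598 counts on transcripts, with the lowest total in dex replicate 2 at 1 h. Of the genes, 15337 passed a filter on low counts and were tested. The receptor targets FKBP5, TSC22D3 and PER1 rose with dex at every time point except FKBP5 at 1 h, where its log2 fold change was 0.51 and missed the threshold. The 5 epithelial markers were found in every library, with the keratins KRT8 and KRT18 at 1431 CPM (counts scaled to 1 common library total, after normalization) or more, CDH1 at 28.7 CPM or more, KRT19 at 8.15 to 21.1 CPM and EPCAM at 4.09 to 11.1 CPM. With dex, KRT8 and KRT18 were higher from 3 h on and CDH1 at 5 and 7 h, whereas EPCAM was lower at 5, 7 and 9 h and KRT19 at 5 and 9 h. Of the 5 alveolar and lung lineage markers, ABCA3 was at 23.9 to 48.5 CPM and higher with dex at 3 and 7 h, SFTPB had at most 7 counts in a library, and NKX2-1, SFTPA1 and SFTPC had at most 2. Of the 4 markers of other cells, PTPRC of leukocytes had at most 3 counts and PECAM1 was not analysed here. COL1A1 of fibroblasts was lower with dex at 5, 7 and 9 h and higher at 3 h, and ACTA2 of smooth muscle was lower at 7 h (log2 -0.94). The part of these markers in the results below was not tested. Summed over the markers of other cells, levels ran from 13.7 to 23.8 CPM with EtOH and from 7.39 to 26.9 CPM with dex.

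Expressed per kilobase of exon, the order with EtOH was IER5L, IER3, IER5, IER2 and EGR1. Median levels over 12 EtOH libraries were 17.3 CPM per kilobase for IER5L, 13.0 for IER3, 8.63 for IER5 and 7.63 for IER2. The ranges of neighbours among these IER genes overlapped, while EGR1, at a median of 0.262 CPM per kilobase with a highest value of 0.424, lay far under the lowest IER2 value of 5.84. With dex the order was the same, at medians of 9.07 for IER5L, 4.39 for IER3, 3.94 for IER5, 3.43 for IER2 and 0.243 for EGR1. EGR2, EGR3 and ARC were at or near 0 in both arms. They did not pass the filter, so 5 of the 8 genes were tested. Counts out of 8 below include these untested genes, whereas the shares beside them are over tested genes alone.

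IER2, IER3, IER5 and IER5L fell with dex at 1 h, and IER2, IER3 and IER5 did so at all 6 time points, by between 1.45-fold and 4.56-fold, while IER5L missed the threshold at 5 h alone. EGR1 missed the threshold at every time point. In bulk RNA, less RNA per cell and fewer cells that hold it cannot be told apart. By the quasi-likelihood test of edgeR, called at a Benjamini-Hochberg adjusted p of at most 0.1 over all genes tested, 4 of the 8 genes were lower at 1 h, where 0.417% of all genes tested were called lower. The count was 4 of 8 at 3 h against 5.65% of all genes, 3 at 5 h against 12.6%, 4 at 7 h against 13.5%, 4 at 9 h against 8.95% and 4 at 11 h against 3.33%. In 3 of the 8, IER2, IER3 and IER5, all 12 dex libraries lay below all 12 EtOH libraries, a pattern that 0.476% of all genes tested had. In an estimate added after the data were seen, the mean of the dex effects over the time points was lower and called in 4 of the 8, against 18.9% of all genes called lower and 16.9% called higher.

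**Figure D2:**
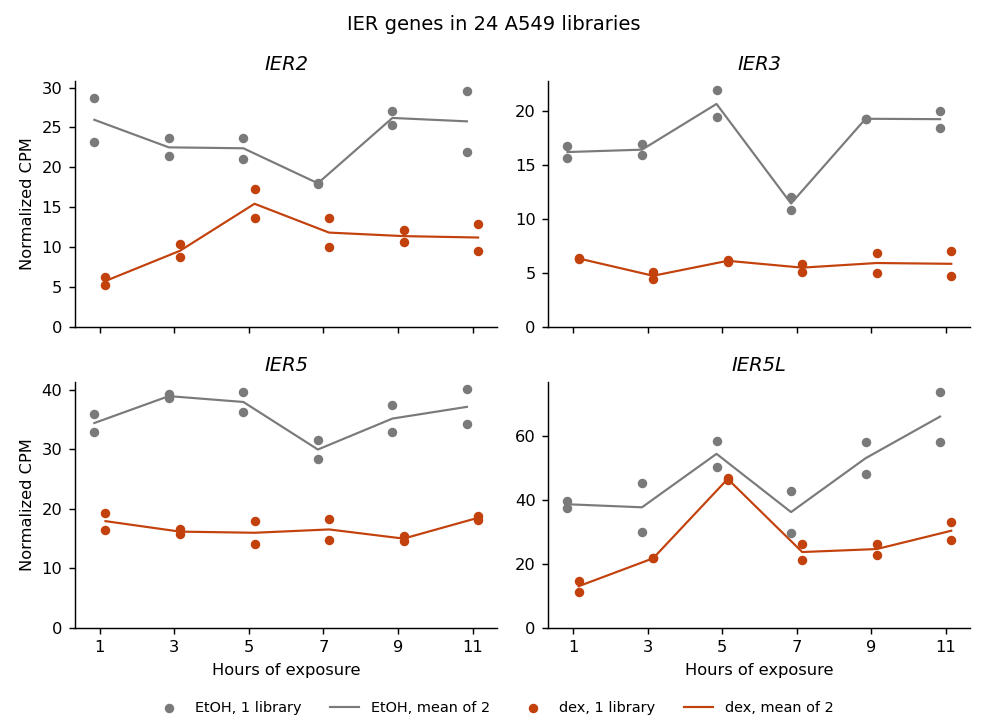
Normalized CPM (y axis) against hours of exposure for IER2, IER3, IER5 and IER5L, with 1 point per library and lines through the means of 2 libraries, in grey for EtOH and orange for dex. At each time point both dex points lie below both EtOH points in every panel, and the arms come closest in IER5L at 5 h. The share of all genes with such an order at a time point was not counted.

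IER2, a nuclear protein linked to transcription (chr19:13150415-13154908 on the plus strand, GRCh38), had the steepest early fall. With EtOH its 2 libraries read 23.2 and 28.7 CPM at 1 h, 21.4 and 23.6 at 3 h, 21.1 and 23.7 at 5 h, 17.9 and 18.1 at 7 h, 25.3 and 27.1 at 9 h and 21.9 and 29.6 at 11 h. With dex they read 5.33 and 6.23 CPM at 1 h, 8.75 and 10.4 at 3 h, 13.7 and 17.2 at 5 h, 10.0 and 13.7 at 7 h, 10.7 and 12.1 at 9 h and 9.51 and 12.9 at 11 h. The dex values were lowest at 1 h and highest at 5 h, and no dex value reached an EtOH value. The fall was 4.56-fold at 1 h, a log2 fold change of -2.19 with a standard error (SE) of 0.20 and an adjusted p of 1.4e-06. It was 2.36-fold at 3 h (adjusted p = 3.36e-06) and 1.45-fold at 5 h (adjusted p = 0.0115). The difference thus shrank after 1 h. It was 1.48-fold at 7 h (adjusted p = 0.00627), 2.25-fold at 9 h (adjusted p = 0.000222) and 2.26-fold at 11 h (adjusted p = 0.00484). The 5 h call was lost without dex replicate 1 (adjusted p = 0.186) or without EtOH replicate 1 (adjusted p = 0.132), and the 7 h call without dex replicate 2 (adjusted p = 0.195). Leaving out a library kept the other IER2 calls, although over all alternatives the largest adjusted p at 11 h lay just under the threshold.

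The 3 IER2 transcripts held 5.73%, 41.0% and 53.2% of its counts. At 1 h the transcript with 41.0% of the counts fell by 2.72 on the log2 scale (SE 0.26) and the one with 53.2% fell by 1.84 (SE 0.23). At 7 h the first fell by 0.86 (adjusted p = 0.00433), whereas the other had a log2 fold change of -0.32 and missed the threshold (adjusted p = 0.345). How the counting placed reads that fit several transcripts is not given in the sources used here, so differences between these transcripts are uncertain and were not tested.

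IER3, which acts in cell survival (chr6:30743199-30744554 on the minus strand, GRCh38), had the largest mean fall. With EtOH its 2 libraries read 15.6 and 16.8 CPM at 1 h, 15.9 and 16.9 at 3 h, 19.4 and 21.9 at 5 h, 10.8 and 12.1 at 7 h, 19.25 and 19.29 at 9 h and 18.4 and 20.03 at 11 h. With dex they read 6.32 and 6.39 CPM at 1 h, 4.42 and 5.09 at 3 h, 6.05 and 6.23 at 5 h, 5.15 and 5.87 at 7 h, 4.99 and 6.88 at 9 h and 4.72 and 7.00 at 11 h. The dex libraries stayed within a narrow band, and the EtOH libraries dipped at 7 h without reaching it. The fall was 2.56-fold at 1 h (log2 -1.36, SE 0.20, adjusted p = 0.000689). It was 3.46-fold at 3 h, 3.35-fold at 5 h, 2.04-fold at 7 h, 3.11-fold at 9 h and 3.24-fold at 11 h, with adjusted p of at most 0.000523 at these times. Every one of these calls held when any single library was left out. The mean fall over the time points was 2.93-fold (log2 -1.55, SE 0.07). The 2 transcripts of IER3 start a few bases apart and held 48.5% and 51.5% of its counts.

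IER5, which acts with a phosphatase on heat shock factor (chr1:181088712-181092899 on the plus strand, GRCh38), fell by between 1.78-fold and 2.40-fold over the time points. With EtOH its 2 libraries read 32.8 and 36.0 CPM at 1 h, 38.6 and 39.2 at 3 h, 36.3 and 39.6 at 5 h, 28.4 and 31.5 at 7 h, 32.9 and 37.4 at 9 h and 34.2 and 40.1 at 11 h. With dex they read 16.5 and 19.3 CPM at 1 h, 15.8 and 16.5 at 3 h, 13.98 and 17.9 at 5 h, 14.8 and 18.2 at 7 h, 14.5 and 15.4 at 9 h and 18.1 and 18.8 at 11 h. The highest dex value, 19.3 CPM, lay well under the lowest EtOH value, 28.4 CPM. The fall was 1.94-fold at 1 h (log2 -0.96, SE 0.16, adjusted p = 0.00177) and 2.40-fold at 3 h (adjusted p = 1.04e-07). It was 2.38-fold at 5 h, 1.78-fold at 7 h, 2.31-fold at 9 h and 1.98-fold at 11 h, with adjusted p of at most 0.00262. Every call held without any single library, although over all alternatives the largest adjusted p at 11 h lay just under the threshold.

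IER5L, a paralog of IER5 (chr9:129175552-129178262 on the minus strand, GRCh38), fell early, came close to the EtOH level at 5 h and was lower again later. With EtOH its 2 libraries read 37.7 and 39.8 CPM at 1 h, 30.1 and 45.5 at 3 h, 50.5 and 58.6 at 5 h, 29.8 and 42.7 at 7 h, 48.2 and 58.1 at 9 h and 58.4 and 74.1 at 11 h. With dex they read 11.3 and 14.7 CPM at 1 h, 21.7 and 21.8 at 3 h, 46.4 and 47.0 at 5 h, 21.2 and 26.2 at 7 h, 23.0 and 26.4 at 9 h and 27.6 and 33.2 at 11 h. The dex peak at 5 h was shared by both libraries and exceeded several EtOH values of other time points, while both EtOH libraries of 5 h lay above it. The fall was 3.03-fold at 1 h (log2 -1.60, SE 0.17, adjusted p = 7.99e-06) and 1.74-fold at 3 h (adjusted p = 0.00127). At 5 h the log2 fold change was -0.22 with a 95% interval of -0.46 to 0.02 (adjusted p = 0.212). The fall was then 1.503-fold at 7 h (adjusted p = 0.0201), 2.11-fold at 9 h (adjusted p = 0.000195) and 2.15-fold at 11 h (adjusted p = 0.00125). The 7 h call was lost without dex replicate 2 (adjusted p = 0.190). Without EtOH replicate 2 the log2 fold change was -0.46 in place of -0.80 at 3 h (adjusted p = 0.0794) and -0.31 in place of -0.59 at 7 h (adjusted p = 0.0883).

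**Figure D3:**
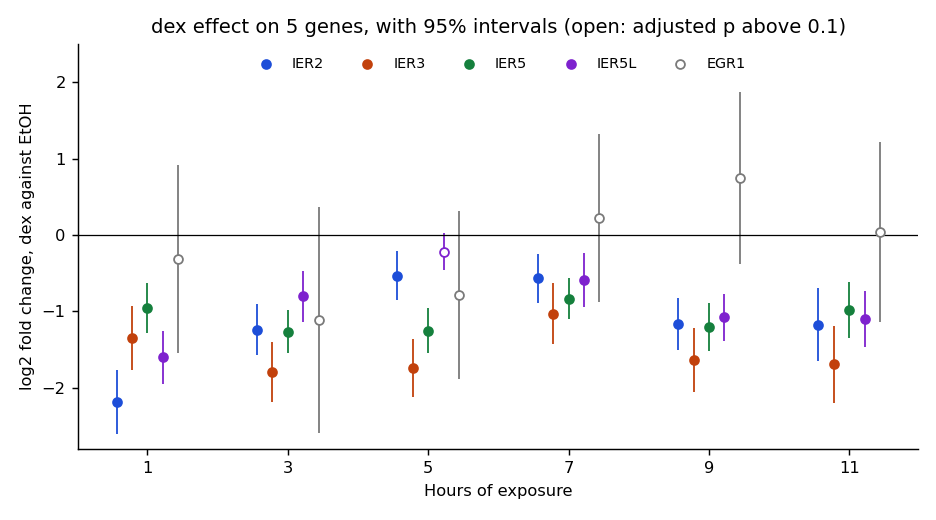
Log2 fold change of dex against EtOH (y axis) against hours of exposure for IER2, IER3, IER5, IER5L and EGR1, offset sideways, with bars for 95% intervals, filled points for an adjusted p of at most 0.1 and open points otherwise. IER2 runs from -2.19 at 1 h to -0.53 at 5 h, IER3 stays between -1.79 and -1.03, and every EGR1 interval spans 0.

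The question whether the dex effect itself changed over time was put to a test of treatment by time over all 24 libraries. It was called in 2 of the 8 genes, IER2 (adjusted p = 0.00125) and IER5L (adjusted p = 0.0144), where 15.4% of all genes tested were called. IER3 (adjusted p = 0.245), IER5 (adjusted p = 0.422) and EGR1 (adjusted p = 0.418) did not pass. A comparison added after the data were seen took the dex libraries alone, where 23.3% of all genes tested differed between time points. Of the 5 tested genes among the 8, 2 did. These were again IER2 (adjusted p = 0.00485) and IER5L (adjusted p = 6.66e-06). From 1 h to 5 h with dex, IER5L rose by a log2 difference of 1.86 (95% interval 1.51 to 2.21) and IER2 by 1.43 (95% interval 0.95 to 1.91). IER3 changed by -0.05 (95% interval -0.57 to 0.47) and IER5 by -0.16 (95% interval -0.52 to 0.20) over the same hours.

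Drift in the vehicle was called for 1 of the 8 genes, IER3 (adjusted p = 0.0354), against 3.3% of all genes tested. Its EtOH mean was 16.2 CPM at 1 h, 20.6 CPM at 5 h and 11.4 CPM at 7 h, a log2 difference of -0.51 from 1 h to 7 h (95% interval -0.81 to -0.20). The dip was not followed by a lasting fall, since the mean was 19.3 CPM at 9 h. With the 1 h libraries left out the call stayed (adjusted p = 0.0314). With 1 library per time point this test has no spread to work with, so the call has no check by leaving out a replicate. IER5L did not pass (adjusted p = 0.145), although DESeq2 called it (adjusted p = 0.000571), and its EtOH level was 0.77 higher on the log2 scale at 11 h than at 1 h (95% interval 0.30 to 1.24). IER2 (adjusted p = 0.169), IER5 (adjusted p = 0.345) and EGR1 (adjusted p = 0.877) did not pass. IER2 had its lowest EtOH mean, 18.01 CPM, and IER5 its lowest, 29.9 CPM, at 7 h as well. So did IER5L, at 36.3 CPM, close to its mean of 37.8 CPM at 3 h.

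EGR1, a zinc finger factor (chr5:138465490-138469315 on the plus strand, GRCh38), was present at a few counts per library. With EtOH its 2 libraries held 9 and 12 counts at 1 h, 5 and 9 at 3 h, 13 and 12 at 5 h, 9 and 8 at 7 h, 13 and 5 at 9 h and 6 and 9 at 11 h. With dex they held 6 and 5 counts at 1 h, 4 and 2 at 3 h, 7 and 5 at 5 h, 12 and 6 at 7 h, 13 and 15 at 9 h and 8 and 12 at 11 h. In normalized CPM, dex libraries lay under EtOH libraries at 1, 3 and 5 h, and the arms overlapped from 7 h on. At 1 h the higher dex value was 0.760 CPM and the lower EtOH value 0.777 CPM. How many of all genes show such an order with 2 libraries per arm was not counted, so the order is not read as a sign of a fall. The log2 fold change was -0.32 at 1 h (95% interval -1.55 to 0.91), -1.11 at 3 h (95% interval -2.60 to 0.37) and -0.78 at 5 h (95% interval -1.89 to 0.32). It was 0.22 at 7 h (95% interval -0.87 to 1.32), 0.74 at 9 h (95% interval -0.38 to 1.87) and 0.04 at 11 h (95% interval -1.14 to 1.21). The smallest adjusted p was 0.363, at 5 h. With single libraries left out the log2 fold change ran from -1.77 to -0.62 at 3 h and from 0.28 to 1.47 at 9 h. The intervals are wide, and that at 3 h holds the log2 fold change of IER2 at 3 h (-1.24). Averaged over the time points the log2 fold change was -0.21 (95% interval -0.65 to 0.23, adjusted p = 0.528), an interval that holds neither the mean fall of IER2 (-1.15) nor that of IER3 (-1.55).

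**Figure D4:**
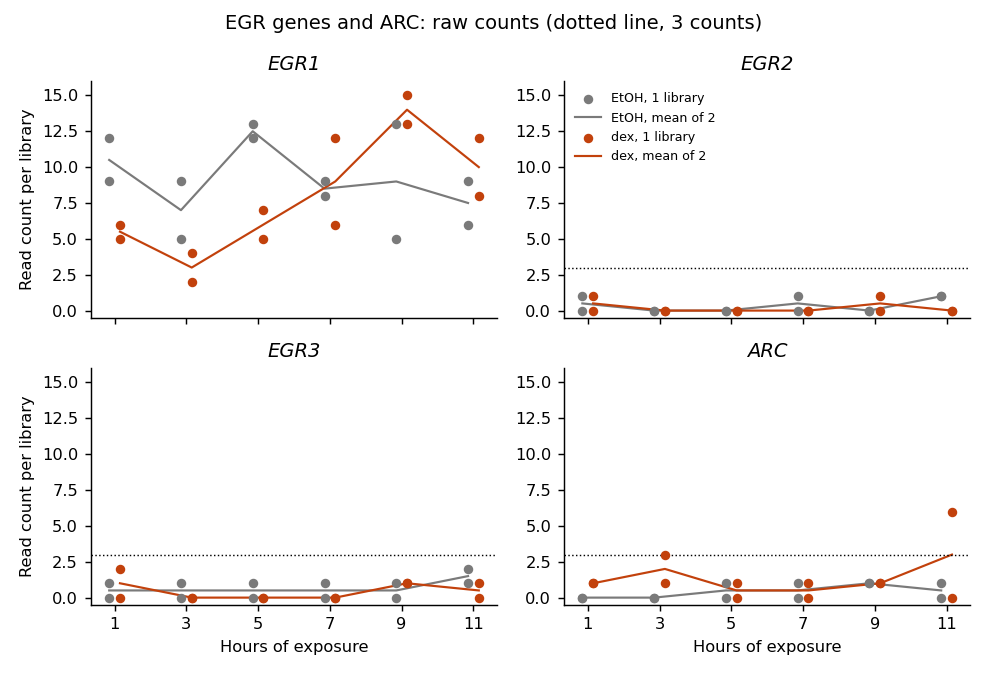
Raw read counts per library (y axis) against hours of exposure for EGR1, EGR2, EGR3 and ARC on 1 scale, with 1 point per library, lines through the means of 2 libraries and a dotted line at 3 counts in the panels of the genes that were not tested. EGR1 runs from 2 to 15 counts, and among the other 3 genes only ARC in dex replicate 1 at 11 h, with 6 counts, is above the line.

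EGR2, EGR3 and ARC were at the limit of these libraries. EGR2 had 6 counts in all 24 libraries, 4 with EtOH and 2 with dex, and no library had more than 1. EGR3 had 13 counts, 8 with EtOH and 5 with dex, and no library had more than 2. In a single library, the limit that a count of 0 allows, 3 counts of the total, was between 0.218 and 0.447 CPM. Over each arm, EGR3 stood at 0.0636 CPM with EtOH (95% exact Poisson interval 0.0275 to 0.125) and at 0.0421 CPM with dex (0.0137 to 0.0983). EGR2 stood at 0.0318 CPM (0.00866 to 0.0814) and at 0.0168 CPM (0.00204 to 0.0609), so no difference was detectable for either gene. ARC had 5 counts with EtOH, in 5 libraries, and 16 with dex, in 9 libraries. That is 0.0398 CPM with EtOH (0.0129 to 0.0928) and 0.135 CPM with dex (0.077 to 0.219). Of the dex counts, 6 came from replicate 1 at 11 h, where replicate 2 had 0. These intervals cover counting error only, and the 3 genes were not tested.

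Some IER counts may include reads of neighbours on the opposite strand. The libraries were stranded, but whether the counting used strand is not given in the sources used here. The gene AC011446.2, which overlaps IER2, had 439 counts with EtOH and 146 with dex and fell at every time point except 11 h. IER3-AS1 had 339 counts with EtOH and 100 with dex and fell from 3 h on, with a log2 fold change of -2.55 at 3 h (adjusted p = 0.000355) beside -1.79 for IER3. AL158151.1, which overlaps IER5L, had 573 counts with EtOH and 310 with dex and fell at 3, 7 and 9 h, while AL158151.3 had at most 15 counts in a library and missed the threshold throughout. Each of these genes had far fewer counts than the member it overlaps, which had 3005 (IER2), 2189 (IER3) and 6003 (IER5L) counts with EtOH. Reads of the pairs cannot be told apart. EGR1, EGR2, IER5 and ARC had no overlapping gene in the table.

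The genes most like IER2 over the 24 libraries, among those with a mean of at least 100 counts, were HES1, a transcriptional repressor (Pearson r of log2 CPM = 0.92), ARRDC3, an arrestin family member (r = 0.90), and IER5L (r = 0.88). Those most like IER3 were IER5 (r = 0.96), RND1 (r = 0.94), and EDN1, the endothelin precursor (r = 0.94). These are descriptions over libraries that share the 2 treatments, and they follow the gap between arms in part. Within the 12 dex libraries r was 0.88 for IER2 with IER5L and 0.23 for IER3 with IER5, and within the 12 EtOH libraries it was 0.55 and 0.72. IER2 and IER5L thus rose and fell together among dex libraries, where IER3 and IER5 were nearly flat. For EGR1 the nearest genes, SYNPO, SLC35A2 and DDX28, had r of 0.65 or less at a mean of 8.54 counts, which is too sparse to read.

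Other immediate early genes were called in both directions at every time point. Of a list of 39, 37 were tested, and 8 were higher and 6 lower at 1 h, where 0.639% of all genes tested were called higher and 0.417% lower. At 3 h 14 were higher and 13 lower, against 8.42% and 5.65% of all genes. At 5 h 14 were higher and 11 lower, against 12.4% and 12.6%. At 7 h 16 were higher and 8 lower, against 14.7% and 13.5%. Lower calls were fewest at 1 h and 9 h. At 9 h 15 were higher and 6 lower, against 10.8% and 8.95%, and at 11 h 13 were higher and 7 lower, against 5.8% and 3.33%. Its median log2 fold change ran from -0.07 at 1 h to 0.36 at 9 h, beside medians over all genes of -0.003 and -0.006. Among the listed genes that were called, the lowest at 1 h were the kinase PLK2 (log2 -1.44), the AP-1 subunit JUN (-1.20) and the transcriptional repressor KLF10 (-1.04), and the highest were ZFP36, which destabilizes inflammatory mRNAs (2.34), and the transcription factors KLF6 (1.93) and KLF4 (1.69). Among those called at 11 h the lowest were the stress cytokine GDF15 (-3.52) and the orphan receptors NR4A2 (-2.15) and NR4A3 (-1.58). Their counts were low over all time points. GDF15 had 22 to 50 per EtOH library and 1 to 15 per dex library, NR4A2 20 to 46 and 3 to 20, and NR4A3 28 to 60 and 11 to 35. The highest called at 11 h were ZFP36 (2.82), the matricellular protein CTGF (2.41) and KLF6 (1.73). ZFP36 was the highest of the called genes at every time point, and GDF15 the lowest from 3 h on. The phosphatase DUSP1, which shuts off MAP kinases, was among the 3 highest called at 5 h (1.498) and 7 h (1.53).

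**Figure D5:**
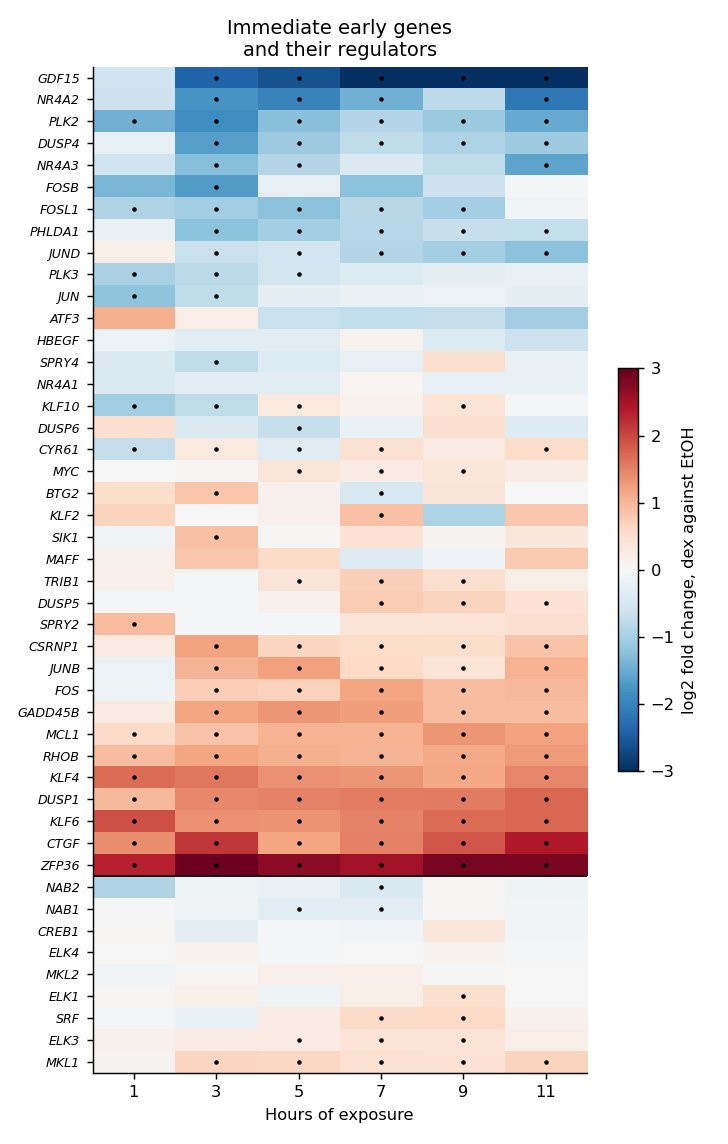
Log2 fold change of dex against EtOH, coloured from blue (lower) to red (higher) and held at -3 and 3, by hours of exposure for 37 other immediate early genes and 9 regulators, separated by a line, with a dot for an adjusted p of at most 0.1. Immediate early genes lie in both colours, with GDF15 at the low end and ZFP36 at the high end, whereas the regulators lie nearer to 0.

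Of the 9 regulators of the immediate early genes, 1 was higher at 3 h, where 8.42% of all genes tested were called higher, 2 at 5 h (12.4%), 3 at 7 h (14.7%), 4 at 9 h (10.8%) and 1 at 11 h (5.8%). At 5 h 1 was lower, against 12.6% of all genes, and at 7 h 2 were, against 13.5%. MKL1, the actin-sensitive SRF coactivator, rose from 3 h on, by a log2 fold change of 0.64 at 3 h and 0.67 at 11 h. SRF itself rose by 0.57 at 7 h (adjusted p = 0.00653) and by 0.59 at 9 h (adjusted p = 0.0515). ELK3 rose at 5, 7 and 9 h, by at most 0.42, and ELK1 at 9 h by 0.47. Of the EGR corepressors, NAB1 was lower at 5 h (-0.31) and 7 h (-0.31). NAB2, itself an EGR target, was lower at 7 h (-0.47, adjusted p = 0.0434) and had a log2 fold change of -0.90 at 1 h that missed the threshold. ELK4, MKL2 and CREB1 missed it at every time point.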

How the data were processed

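The deposited table holds counts of 50-base single-end reads per transcript, which the authors made with Bowtie (v.0.12.9) against GENCODE (v.19) and samtools idxstats (v.1.3.1). These counts are corrected for neither depth nor length, and the row for unplaced reads holds 0. Gene names came from GENCODE release 29, matched by transcript identifier without version, which named 110262 of 119207, and summed per gene. Coordinates of genes are those of GRCh38. The 8 genes, the gene lists and the tests were chosen with earlier results of these data known. Genes were kept by filterByExpr (a count of 10 in a library of median size in 2 libraries, total 15). Each time point was fitted by itself in edgeR 4.0.16 (R 4.3.3) with TMM factors and robust quasi-likelihood F-tests (2 libraries per arm). P-values were adjusted by Benjamini-Hochberg, and the threshold was 0.1. Drift was a test of time as levels in the EtOH libraries, and the interaction used all 24. CPM were normalized over 24 libraries, log2 CPM had a prior count of 2, and values were divided by union exon length for levels per kilobase. SE are the log2 fold change over the square root of F.

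Named genes were the 8 members, the regulators, the 3 lowest and 3 highest listed genes called at a time point and the 3 genes of most like pattern to EGR1, IER2 and IER3. Total counts ranged from 6708864 to 13748598 per library, and intervals on counts cover counting error only. No pair of replicates agreed within sampling noise, so all libraries were counted. Fits were tested on simulated data, in which most changed genes were called but the share of false calls was above the threshold in several comparisons, so calls near the threshold are less certain than their adjusted p. Alternatives were DESeq2 1.42.0, its size factors, no filter, a stricter filter, 1 fit over all libraries, a replicate block, a threshold of 0.05, single transcripts and leaving out each replicate. Promoters and their coordinates are from RefSeq, and no value of the study's supplementary files was used. Some listed upstream kinases are not reported here.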

Additional observations from a re-analysis of the deposited data

Results flagged for a closer look

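The dex effect on IER2 differed between time points in the test of treatment by time (edgeR's quasi-likelihood test, adjusted p = 0.00125), with log2 fold changes of -2.19 at 1 h and -0.53 at 5 h. The dex effect on IER5L differed as well (adjusted p = 0.0144), with log2 fold changes of -1.60 at 1 h and -0.22 at 5 h. With DESeq2 the adjusted p was 1.67e-05 for IER2 and 0.000626 for IER5L. The causes were not tested. Groups of 2 libraries are too small for a check of single outlying libraries.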

How the results depend on the processing

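Over 354 checks of single genes and times, the IER genes were lower with dex in 288 of 288. The checks at a threshold of 0.05 reuse the main fit, so their direction could not change. Of the 288, 5 lost the call. These were IER2 at 5 h without dex or EtOH replicate 1 and IER2 at 7 h with single transcripts (adjusted p = 0.345). The others were IER2 and IER5L at 7 h without dex replicate 2. At 1, 3 and 7 h DESeq2 gave EGR1 no adjusted p. EGR1 had no adjusted p of 0.1 or less in its 66 checks and turned sign in 4. Its log2 fold change ran from -0.070 to 0.40 at 7 h and from -0.31 to 0.32 at 11 h with a library left out, negative at 7 h without dex replicate 1 and at 11 h without dex replicate 2 or EtOH replicate 1, and it was -0.0075 at 11 h with single transcripts. Members called ranged from 2 to 4 at 7 h with single libraries left out. Genes called at 1 h (162) came to 262 with no filter and 583 with the replicate block, and single libraries left out gave 88 to 691. At 3 h (2159) they came to 1208 with DESeq2, 4005 with single transcripts and 1290 to 2598 with a library left out. At 5 h (3834) they came to 2348 with DESeq2 and 8261 with single transcripts. At 7 h (4324) they came to 2464 with DESeq2, 9133 with single transcripts and 2006 to 4821 with a library left out. At 9 h (3033) they came to 1831 with DESeq2, 5841 with single transcripts and 1056 to 5297 with a library left out. At 11 h (1399) they came to 2478 with 1 fit over all libraries, 2855 with single transcripts and 720 to 4978 with a library left out. Single transcripts are more numerous than genes, and the other causes were not tested. The study's methods speak of a paired vehicle control, while the labels give replicate numbers only. Same-numbered libraries deviated together at correlations of -0.07 to 0.16, which cannot settle whether the numbers mark pairs. The main fits did not pair them, and the replicate block changed no call of an IER gene. For drift in EtOH (506 genes, 1 member), DESeq2 called 2 members (IER3 and IER5L) and no filter called 1831 genes and 3 members (IER2, IER3 and IER5L), while a threshold of 0.05 left 124 genes. A linear trend in edgeR called 0 genes and 0 members, with 996 genes at an unadjusted p under 0.05. Without replicate 1 or 2, where 1 library per time point leaves no spread for a test of levels, the same linear trend was fitted, and it called 0 genes and 0 members in edgeR, with 538 and 748 genes at an unadjusted p under 0.05. DESeq2 was not run on these. Depth limits EGR1, EGR2, EGR3 and ARC most.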

Other observations

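Among kinases upstream of the immediate early genes, RPS6KA3, a ribosomal S6 kinase, was lower at 3 h (log2 -0.27), 5 h (-0.63), 7 h (-0.62) and 11 h (-0.43) by edgeR's quasi-likelihood test. MAP2K2, a dual-specificity kinase, was higher at 5 h (0.65) and 7 h (0.83), and MAP2K1, its paralog, was higher at 7 h (0.20). These kinases were chosen after their values were seen.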
